A study of Mus musculus with 6 samples.

Results

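The kainate receptor subunit genes Grik1 to Grik5 and the auxiliary subunit genes Neto1 and Neto2 were examined in the striatum of WT mice and of Shank3 TG mice, which carry an EGFP-Shank3 transgene that overexpresses the postsynaptic scaffold Shank3. The members were the 7 of the 46078 genes in the deposited table whose Ensembl identifier carries one of these symbols in the GENCODE M21 annotation of GRCm38. All 7 had enough reads to be tested, as did 17605 genes in all, by a filter of at least 10 on the mean normalized read count. The libraries came from 3 TG and 3 WT mice, all 12-week-old C57BL/6J males, with 1 library per mouse from dissected striatal tissue, so every value is an average over all cell types of the piece. The promoter of the transgene is not given in the sources used here. In bulk tissue, fewer cells of a type and less RNA per cell cannot be told apart.

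Kainate receptors are tetrameric glutamate-gated ion channels that act both in the postsynaptic membrane and in axon terminals, where they adjust transmitter release. The products of Grik1, Grik2 and Grik3 (GluK1, GluK2 and GluK3) can form channels on their own, whereas those of Grik4 and Grik5 (GluK4 and GluK5) bind kainate with high affinity and need a partner of the first kind to make a working channel. Neto1 and Neto2 are single-pass membrane proteins that bind the channels, slow their gating and affect their traffic to synapses. In the striatum these receptors are found in medium spiny neurons, in interneurons and on the terminals of cortical afferents.

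The division of the family is visible, though only weakly for Grik3, in the stretch of coding sequence that ends at the pore loop. It is shown here because it holds the glutamine codon known as the Q/R site, where RNA editing of GluK1 and GluK2 can replace glutamine with arginine and lower the calcium permeability of the channel. The 60 bases below are the GENCODE M21 coding strand, 5′ to 3′, and the capitals mark the Q/R codon, CAG in all 5 genes:
Grik1: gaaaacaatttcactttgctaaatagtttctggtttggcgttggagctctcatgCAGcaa
Grik2: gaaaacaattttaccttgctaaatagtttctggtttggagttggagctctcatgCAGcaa
Grik3: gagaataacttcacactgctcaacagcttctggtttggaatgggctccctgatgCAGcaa
Grik4: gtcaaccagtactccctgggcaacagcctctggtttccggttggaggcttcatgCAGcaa
Grik5: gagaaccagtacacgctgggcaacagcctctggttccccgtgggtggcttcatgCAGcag

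Each window lies within 1 exon of GRCm38, at chr16:87940539-87940598 (minus strand, exon 13 of 18) for Grik1, chr10:49244326-49244385 (minus strand, exon 13 of 17) for Grik2, chr4:125691153-125691212 (plus strand, exon 12 of 16) for Grik3, chr9:42547620-42547679 (minus strand, exon 16 of 21) for Grik4 and chr7:25022494-25022553 (minus strand, exon 15 of 20) for Grik5. Against the Grik2 window, 57 of the 60 bases were identical in Grik1, 45 in Grik3, 40 in Grik4 and 37 in Grik5. Against the Grik5 window, 51 bases were identical in Grik4, 41 in Grik3, 39 in Grik1 and 37 in Grik2. Over the whole coding sequence, identity was between 71.3% and 72.5% within Grik1, Grik2 and Grik3 and 72.4% between Grik4 and Grik5. Between these groups it was between 57.6% and 61.7%. Neto1 and Neto2 were 65.6% identical. The longest run of identical bases between annotated transcripts of any pair of members was 46, between Grik2 and Grik3, which is shorter than the reads as sequenced. The authors trimmed reads before alignment and kept some lengths below this run, so a trimmed read could lie within it. Gene counts do not show whether the Q/R codon was edited.

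Between 27689589 and 36647626 reads per library fell on genes, with medians of 32342629 in TG and 32087895 in WT mice. Shank3, the overexpressed gene, had normalized read counts between 26044 and 29891 in TG mice and between 12918 and 13865 in WT mice, so every TG library lay above every WT library, as labelled. Its log2 fold change was 1.05 ± 0.06 (standard error, limma, adjusted P = 7.04e-05). The summed normalized read counts of 12 markers of medium spiny neurons, the main striatal cell type, were lowest in TG replicate 1 (131540.0) and highest in TG replicate 2 (183120). They were 153685 in TG replicate 3 and 158585, 164798 and 182614 in WT replicates 1, 2 and 3. The sum of 8 cortical excitatory neuron markers ran the other way, from 39468 in TG replicate 1 to 27671 in TG replicate 2. It was 38616 in TG replicate 3 and 37037, 35486 and 32347 in WT replicates 1, 2 and 3. The sum of 10 choroid plexus markers was 15089.6 in TG replicate 1, 1457 in TG replicate 2 and between 310.5 and 643 in the other libraries. TG replicate 1 therefore stood apart by the medium spiny neuron and choroid plexus sums. By the cortical sum it lay close to TG replicate 3, and TG replicate 2 stood apart. Values without TG replicate 1 are given below where it bears on a member.

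Grik5, the high-affinity subunit GluK5, was the most abundant member in both genotypes, and Grik1 the least. In WT mice Grik5 had 1808 ± 86.3 normalized read counts per kilobase of annotated exon (SD, n = 3). By its mean over all 6 libraries it lay above 95.7% of the protein-coding genes tested. In WT mice Neto2 followed with 732 ± 44.8 (SD, n = 3), Grik3 with 575 ± 44.9, Neto1 with 428 ± 8.79 and Grik2 with 302 ± 19.9 per kilobase of exon. Grik4 had 104 ± 5.79 and Grik1 34.0 ± 1.90 (SD, n = 3). By its mean over all 6 libraries, Grik1 lay above only 21.3% of the protein-coding genes tested. Over all 6 libraries, the ranges of neighbours in this order overlapped only for Neto2 (649 to 802 per kilobase of exon) and Grik3 (523 to 666), and Neto2 was above Grik3 in 5 of 6 libraries. Grik5, Neto1, Grik2, Grik4 and Grik1 each lay apart from their neighbours in every library. The order of 1 pair depended on the length used. Per kilobase of coding sequence, the WT mean was 2234 for Neto1, 1872 for Grik3 and 1469 for Grik2.

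The subunits therefore made up very unequal parts of the kainate receptor transcripts. Of the summed Grik level per kilobase of exon, Grik5 took between 61.7% and 65.7% in the 6 libraries, Grik3 between 18.8% and 23.2%, Grik2 between 9.20% and 12.5%, Grik4 between 3.31% and 3.99% and Grik1 between 1.14% and 1.38%. Per kilobase of coding sequence the share of Grik5 was lower, between 44.2% and 48.6%, and that of Grik2 higher, between 18.5% and 24.6%. On either scale Grik5 was the largest share and Grik1 the smallest in every library. The share of Grik5 per kilobase of exon was 62.32%, 62.24% and 61.73% in TG replicates 1, 2 and 3 and 65.75%, 62.35% and 64.05% in WT replicates 1, 2 and 3. These groups touch without overlapping, while on the coding scale they overlap (44.2% to 45.4% in TG and 45.01% to 48.57% in WT mice). Neto1 made up between 35.9% and 38.5% of the 2 Neto genes per kilobase of exon. The summed Neto level per kilobase of exon was between 0.363 and 0.454 of the summed Grik level, and per kilobase of coding sequence between 0.642 and 0.782, on both scales with the lowest value in TG replicate 1 and the highest in TG replicate 2.

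**Figure D1:**
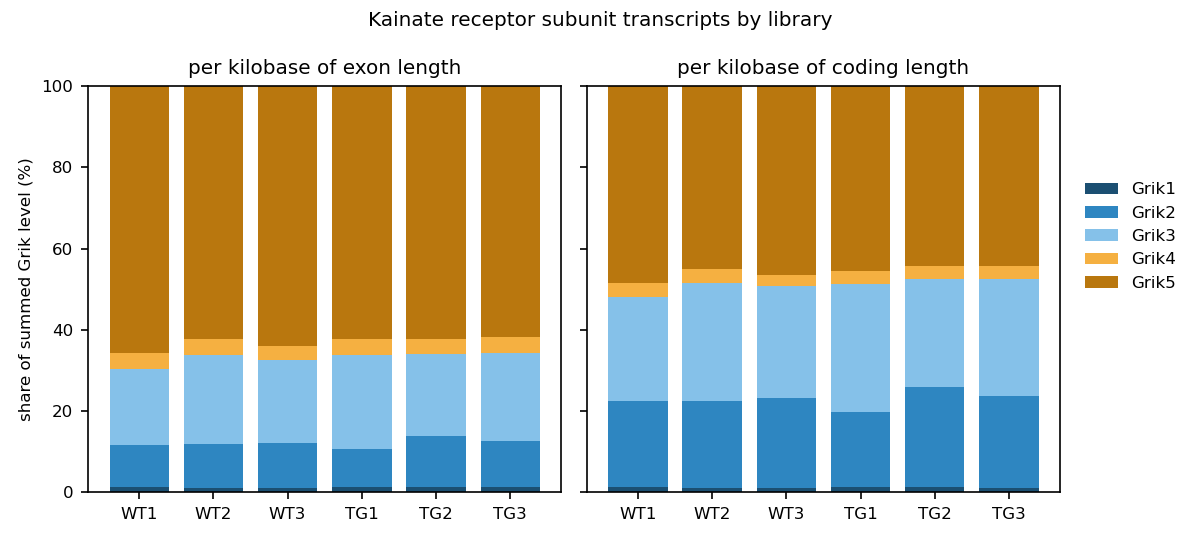
Share of each subunit gene in the summed Grik level of each library (percent, stacked bars), with normalized read counts divided by the kilobases of annotated exon (left) or of coding sequence (right). Grik5 is the largest share in all 6 libraries on both scales, between 61.7% and 65.7% on the left and between 44.2% and 48.6% on the right.

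Beside the other ionotropic glutamate receptors, the kainate receptor genes together held between 23.4% and 24.7% of the summed subunit level per kilobase of exon in TG mice and between 23.6% and 25.4% in WT mice. On this scale the NMDA receptor subunits held between 24.5% and 24.7% in TG and between 25.2% and 26.3% in WT mice. The AMPA receptor subunits held the most, between 46.3% and 47.9% in TG and between 44.9% and 46.0% in WT mice. Unlike the kainate share, these shares did not overlap between the genotypes on this scale, a difference that was not tested. On the coding scale the AMPA shares did overlap, with 50.67% to 52.19% in TG and 49.29% to 50.99% in WT mice. The NMDA shares lay just apart there, with 27.57% to 28.01% in TG and 28.06% to 29.60% in WT mice. Per kilobase of coding sequence the kainate share was smaller, between 17.4% and 19.2%, and lay below the NMDA share, between 27.6% and 29.6%, in every library. The highest subunits of the other families in WT mice, per kilobase of exon, were Gria1 (2327), the AMPA receptor subunit GluA1, and Grin1 (1285), the obligatory NMDA receptor subunit, and Grik5 (1808) lay between these. That order turned with the length used. Per kilobase of coding sequence Grik5 (3182) lay below both Grin1 (4334) and Gria1 (5169), and Gria2, the AMPA receptor subunit GluA2, was the highest (9138). Grid1, of the delta receptors, had 451 per kilobase of exon.

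The comparison of genotypes asks whether a rise in Shank3 was accompanied by a change in the transcripts of these receptors. None of the 7 members passed an adjusted P value of 0.05 by limma, and 0 passed an unadjusted P value of 0.05 by limma, edgeR or DESeq2. Among all genes tested, 0.00568% passed the adjusted threshold by limma, and 4.31%, 4.38% and 2.45% the unadjusted one by limma, edgeR and DESeq2. By edgeR 0 members were called, where 0.00568% of all genes were called, and by DESeq2 also 0, where 0.0398% were. In 0 of the 7 members were the groups free of overlap, against 10.1% of all genes tested. The sizes of the log2 fold changes lay between 0.01 and 0.10, with a median size of 0.05, against 0.07 over all genes tested. A change of more than 1.2-fold between group means was seen in 0 members and in 9.09% of all genes. In 6 of the 7 members, all but Grik1, the 95% interval of the fold change lay between 0.833 and 1.2. These intervals do not give the smallest change that could be called with 3 mice against 3, which was not tested. By limma only 1 of the 17605 genes tested passed the adjusted threshold, Shank3, at a log2 fold change of 1.05.

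**Figure D2:**
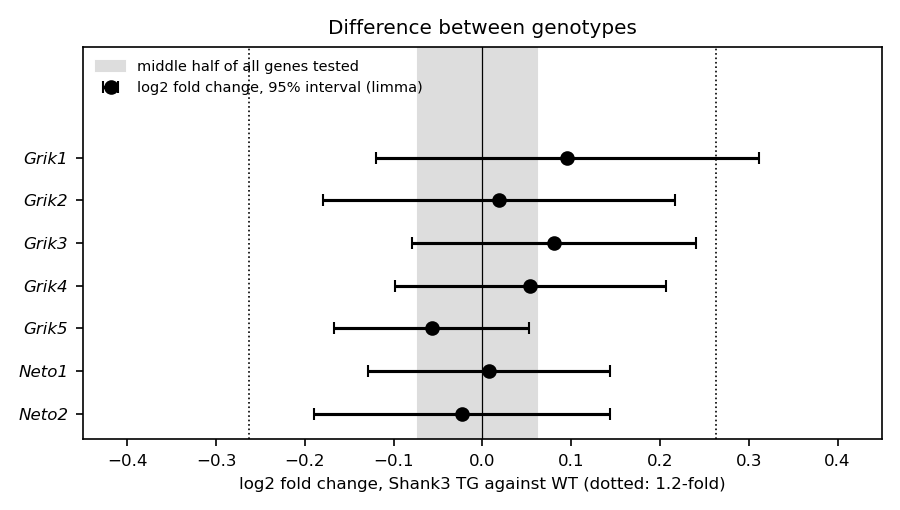
Log2 fold change of each member between Shank3 TG and WT mice with its 95% interval by limma (points and bars), over the interquartile range of all genes tested (grey band, -0.07 to 0.06). Every interval crosses 0, and only that of Grik1 passes a dotted line at 1.2-fold.

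Grik1 (ENSMUSG00000022935; chromosome 16, 87895900 to 88290265, minus strand) encodes GluK1, which in the forebrain is known mostly from interneurons. TG replicates 1, 2 and 3 had 266, 239 and 228 normalized read counts of it, and WT replicates 1, 2 and 3 had 243, 218 and 225. The values overlapped, with TG replicate 1 the highest and WT replicate 2 the lowest. The log2 fold change was 0.10 ± 0.10 (standard error, limma, adjusted P = 0.971), and with 1 library left out it lay between 0.03 (TG replicate 1) and 0.14 (TG replicate 3). With between 212 and 310 reads per library, the counting error of Grik1 reached 6.87% of the value, the largest of the 7. The sum of 8 GABAergic interneuron markers lay between 9636 and 10468 in TG mice and between 10095 and 10928 in WT mice, with Sst the most abundant, and 0 of them were called by limma, edgeR or DESeq2, nor under an unadjusted 0.05 (0 of 8).

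Grik2 (ENSMUSG00000056073; chromosome 10, 49094833 to 49788766, minus strand) encodes GluK2, the subunit best known from postsynaptic kainate receptors of principal neurons. Normalized read counts of Grik2, in the same order of mice, reached 3489.7, 4613 and 4124 (TG) against 3819, 3883 and 4304 (WT). Both the lowest and the highest value belonged to TG mice, so the TG range enclosed that of the WT mice. The group means were 4075 ± 563 (SD, n = 3) and 4002 ± 263 (SD, n = 3), and their log2 fold change came to 0.02 ± 0.09 (standard error, limma, adjusted P = 0.991). Its SD between mice of the same genotype, 0.16 on the log2 scale, was the largest of the 7 members and above that of 66.1% of all genes tested. Without TG replicate 1 the log2 fold change was 0.13 ± 0.07 (standard error, limma, adjusted P = 0.691), and without TG replicate 2 it was -0.08 (adjusted P = 0.966).

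Grik3 (ENSMUSG00000001985; chromosome 4, 125490700 to 125714173, plus strand) encodes GluK3, a low-affinity subunit also known from presynaptic receptors. The TG mice had 5973, 5065 and 5344 normalized read counts of Grik3 against 4695, 5393 and 5393 for the WT mice. TG replicate 1 was highest and WT replicate 1 lowest, and the other 4 lay within both groups' ranges. The log2 fold change was 0.08 ± 0.07 (standard error, limma, adjusted P = 0.971). It was 0.01 when either TG replicate 1 or WT replicate 1 was left out, and 0.13 without TG replicate 2.

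Grik4 (ENSMUSG00000032017; chromosome 9, 42518135 to 42944493, minus strand) encodes GluK4, a high-affinity subunit best known from hippocampal CA3 neurons. The TG mice had 659.8, 610.3 and 653 normalized read counts, and the WT mice had 629, 645 and 579. The means were 641 ± 26.9 (SD, n = 3) and 618 ± 34.5 (SD, n = 3), and the groups overlapped. Its log2 fold change was 0.05 ± 0.07 (standard error, limma, adjusted P = 0.973), and with 1 library left out it lay between 0.01 (WT replicate 3) and 0.09 (TG replicate 2). Without TG replicate 1 it was 0.03.

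Grik5 (ENSMUSG00000003378; chromosome 7, 25009849 to 25072346, minus strand) encodes GluK5, the widespread high-affinity partner of GluK2. Its TG libraries held 9227, 8951 and 8755 normalized read counts, and its WT libraries 9456, 8856 and 9727. The means were 8978 ± 237 (SD, n = 3) and 9346 ± 446 (SD, n = 3). WT replicate 2 lay inside the TG range, and the other WT values above it. The log2 fold change was -0.06 ± 0.05 (standard error, limma, adjusted P = 0.971), with a 95% interval of the fold change from 0.891 to 1.04. It was -0.03 without WT replicate 3, -0.04 without TG replicate 3, -0.08 without TG replicate 1 and -0.10 without WT replicate 2. Grik5 was the steadiest member, with an SD between mice of the same genotype of 0.06 on the log2 scale.

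Neto1 (ENSMUSG00000050321; chromosome 18, 86394952 to 86506718, plus strand) encodes an auxiliary subunit that also associates with NMDA receptors. In the TG mice its normalized read counts reached 3263, 3864 and 3673, and in the WT mice 3557, 3653 and 3509. The WT values all fell between the lowest and the highest TG value. The log2 fold change was 0.01 ± 0.06 (standard error, limma, adjusted P = 0.994), but 0.08 without TG replicate 1 and -0.05 without TG replicate 2. Neto2 (ENSMUSG00000036902; chromosome 8, 85636588 to 85700924, minus strand) encodes the second auxiliary subunit, which also binds the neuronal chloride transporter KCC2. For Neto2 the TG mice had 3975, 4915 and 4384 normalized read counts, and the WT mice 4172, 4686 and 4594. Here too the TG range enclosed the WT range. The log2 fold change was -0.02 ± 0.08 (standard error, limma, adjusted P = 0.989) and turned to 0.05 without TG replicate 1, against -0.10 without TG replicate 2.

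**Figure D3:**
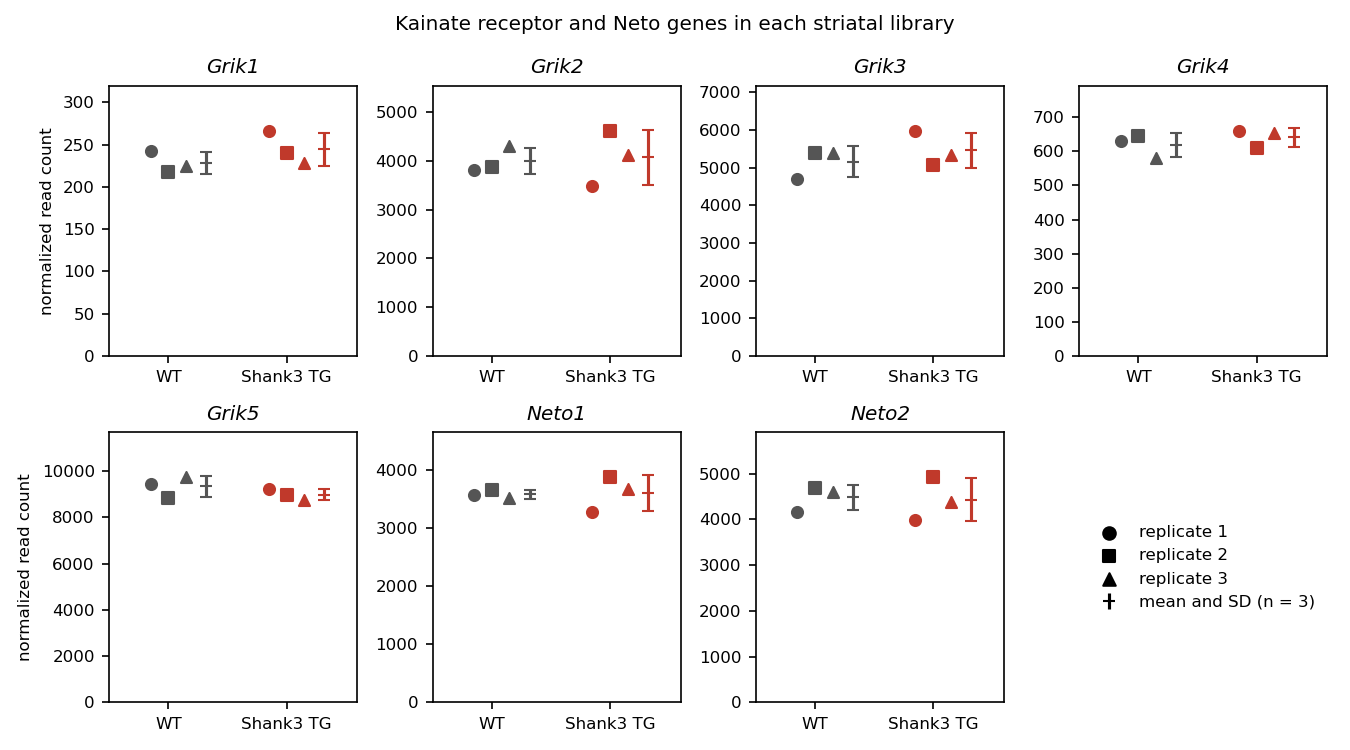
Normalized read counts of the 7 members in each library, by genotype (symbols, 1 per mouse) with mean and SD (n = 3 per group), on linear axes that start at 0. The groups overlap in every panel, and TG replicate 1 is the lowest library for Grik2, Neto1 and Neto2 and the highest for Grik1, Grik3 and Grik4.

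By an exact permutation test (two-sided), P was between 0.3, for Grik5, and 1, for Grik2 and Neto2, where the smallest that 3 mice against 3 allow is 0.1. No annotated gene shares more than a short stretch of exon with a member. An antisense gene shares 219 exon bases with Neto1 and was not in the table, Mir8109 shares 20 with Neto2 and had between 4.50 and 11.7 normalized read counts, and Gm24420 shares 59 with Grik4 and was listed at 0 in every library. The library kit does not mark strand, and the strand setting and annotation of the counting are not given. Whether reads of an antisense transcript were counted with those of the member is therefore not known.

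Among the mice, several members varied together. TG replicate 1 had the lowest values of Grik2, Neto1 and Neto2, and TG replicate 2 the highest values of all 3. Over the 6 libraries and 21 pairs of members, the closest pairs were Grik2 with Neto2 and Neto1 with Neto2. For Grik2 and Neto2, Pearson's r was 0.858 (exact permutation P = 0.0292, adjusted P = 0.306) and Spearman's rho 0.829 (P = 0.0583 in the exact permutation test, adjusted P = 0.613). For Neto1 and Neto2, r was 0.836 (exact permutation P = 0.0292, adjusted P = 0.306) and rho 0.714 (P = 0.136 in the exact permutation test, adjusted P = 0.613). Without TG replicate 1 alone the values of r were 0.719 and 0.648. Without TG replicates 1 and 2 they were 0.384 and 0.124, so both relations rest largely on those libraries together. None of the 21 pairs passed an adjusted P value of 0.05.

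The members were also set against the summed markers of medium spiny neurons, a comparison chosen after these values were seen. Against the 12 markers, r was 0.887 for Grik2 (exact permutation P = 0.0278) and 0.879 for Neto2 (exact permutation P = 0.0236), with rho of 0.829 (P = 0.0583) and 0.886 (P = 0.0333) in the exact permutation test. Grik4, in contrast, had r of -0.827 (exact permutation P = 0.0417) and rho of -0.886 (P = 0.0333). Of the 14 relations computed, 7 members with each of 2 marker lists, none had an adjusted P value under 0.05, the smallest being 0.112 for r and 0.117 for rho. Within genotypes, r was 0.989 for Grik2, 0.909 for Neto2 and -0.796 for Grik4. Without TG replicate 1 alone, r was 0.755 for Grik2, 0.749 for Neto2 and -0.857 for Grik4. Without TG replicates 1 and 2, the libraries farthest from the median marker sum, r was 0.581 for Grik2, 0.582 for Neto2 and -0.916 for Grik4. The r of Grik2 and Neto2 was thus weaker without these libraries, and that of Grik4 was not. Only the WT libraries and TG replicate 3 were then left, too few to decide which relations hold. Neto1 had r of 0.729 (exact permutation P = 0.106) and rho of 0.486 (P = 0.356). Its r fell to 0.212 without TG replicate 1 alone and turned to -0.732 without TG replicates 1 and 2. Against the cortical excitatory neuron markers, r was -0.850 for Grik2, -0.840 for Neto2 and 0.716 for Grik4 (exact permutation P = 0.0292, 0.0319 and 0.0944). Their rho was -0.829, -0.886 and 0.886 (exact permutation P = 0.0583, 0.0333 and 0.0333). Without TG replicate 2 and WT replicate 3, the farthest libraries there, r was -0.338, -0.787 and 0.620. Among the 12832 genes averaging 100 normalized read counts or more, 335 (2.61%) had an r with the medium spiny neuron markers at least as high as that of Grik2. For Grik5 and the medium spiny neuron markers r was 0.157 (exact permutation P = 0.757) and rho 0.200 (P = 0.714), and r was 0.709 without TG replicates 1 and 2.

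**Figure D4:**
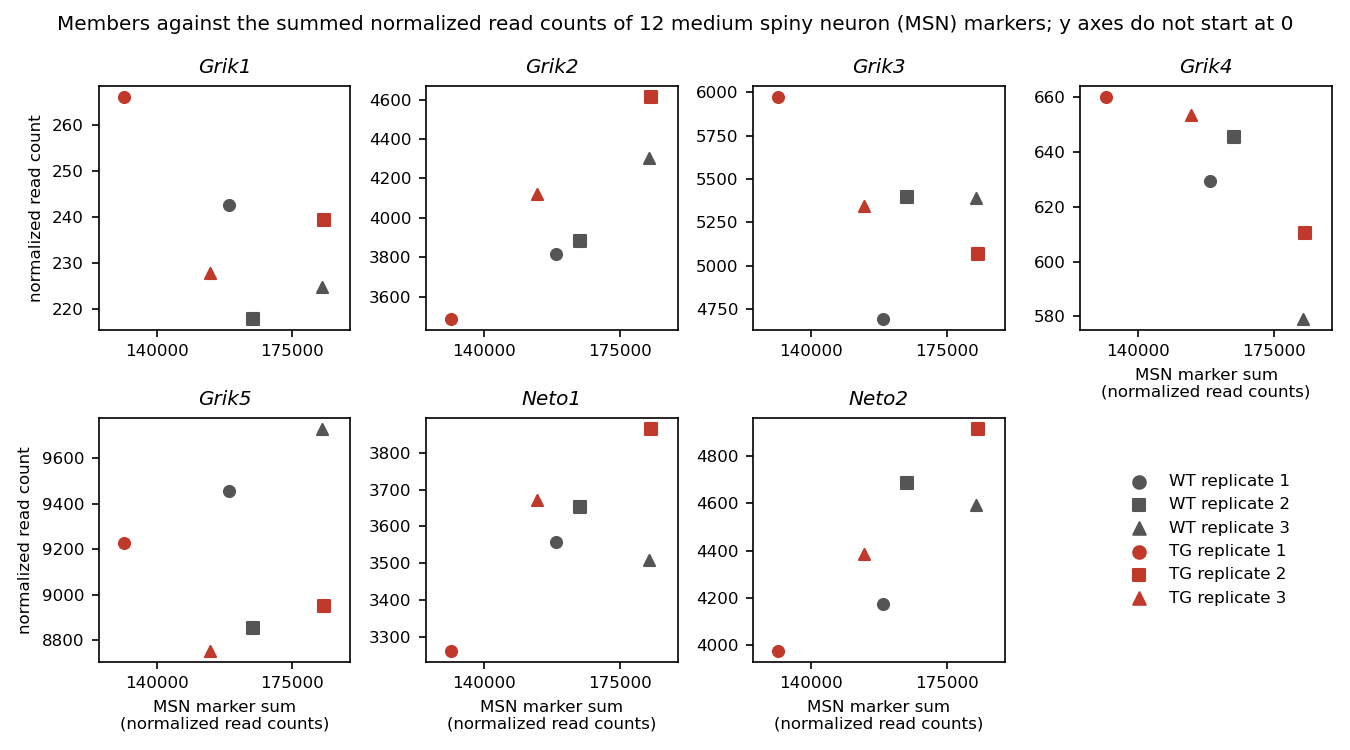
Normalized read count of each member (y axes, not starting at 0) against the summed normalized read counts of 12 medium spiny neuron markers (x axes), 1 symbol per library. Grik2 and Neto2 are lowest in TG replicate 1, where the marker sum is 131540.0, and highest in TG replicate 2, where it is 183120, while Grik4 runs the other way.

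The medium spiny neuron markers were also used as a second term in limma, a setting added after the data were seen. That term was the mean of log2(value + 1) over the markers, not their sum as above. With it the log2 fold change of Grik2 was 0.11 ± 0.05 (standard error, limma, adjusted P = 0.695), against 0.02 without it. Neto2 went from -0.02 to 0.04 ± 0.05 (standard error, limma, adjusted P = 0.865) and Neto1 from 0.01 to 0.05 ± 0.05 (standard error, limma, adjusted P = 0.841). The other 4 members kept their sign, and 0 of the 7 passed the adjusted threshold by limma, with 1, Grik2, under an unadjusted 0.05. Over all genes, this setting put 0.0284% past the adjusted threshold and 7.12% under the unadjusted one. Whether the cell makeup of the dissected tissue took part in these values was not tested.

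For each member the gene with the most similar course over the 6 libraries was sought among the same 12832 genes. These were Kcnq5, a neuronal potassium channel, for Grik2 (r = 0.993), Rbm41 for Neto2 (r = 0.994), Rbbp7 for Grik3 (r = 0.992), Atp5s for Grik1 (r = 0.990) and Gm37086 for Neto1 (r = 0.990). Cyp46a1, the cholesterol 24-hydroxylase of neurons, was the closest to Grik5 (r = 0.989), and 1700019D03Rik to Grik4 (r = 0.989). The rank correlation lay between 0.771 and 1 over these 7 genes. The closest gene of any of the 12832 genes had a median r of 0.992, so these values are what a search over this many genes and 6 libraries gives, and they describe these libraries only.

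Genes whose products bind, modify or carry kainate receptors were also at hand as a list of 36, of which 35 were matched and tested. Limma called 0 of them, as did edgeR and DESeq2, and each of the 3 had 1 gene under an unadjusted P value of 0.05 (Cul3 by limma, Camk2a by edgeR and DESeq2). Their median log2 fold change was 0.02, against -0.00177 over all genes tested, with 21 genes higher and 14 lower in TG mice. The groups were free of overlap in 4 of the 35, all higher in TG mice, against 10.1% of all genes in either direction, 5.06% higher and 5.05% lower. These 4 were Cul3, Dlg1, Cask and Ctnnb1. Cul3 (ENSMUSG00000004364) is the scaffold of a ubiquitin ligase that takes part in the turnover of GluK2. The TG mice had 4356, 4346 and 4356 normalized read counts of Cul3 against 4127, 3963 and 4095 in the WT mice. The TG values lay close together and above all WT values, and their log2 fold change came to 0.10 ± 0.04 (standard error, limma, adjusted P = 0.971).

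Dlg1 and Cask, membrane-associated guanylate kinases that bind kainate receptor subunits through PDZ domains, had log2 fold changes of 0.07 ± 0.04 (standard error) and 0.07 ± 0.05 (standard error), with an adjusted P of 0.971 by limma for each. Ctnnb1, the catenin that links cadherins and GluK2 to the cytoskeleton, had 0.04 ± 0.04 (standard error). C1ql3, a secreted protein that binds GluK2 and GluK4 at hippocampal mossy fibres, had 0.18 ± 0.12 (standard error), and Kif17, a dendritic motor, -0.08 ± 0.06 (standard error). The value of C1ql3 rested on single libraries, at 0.06 without TG replicate 3 and 0.33 without TG replicate 2, and that of Kif17 was -0.04 without WT replicate 3 and -0.12 without WT replicate 1. Among the most abundant of the list, Camk2a, the kinase that phosphorylates GluK5, had a value of -0.14 ± 0.07 on the same scale (standard error, limma, adjusted P = 0.971), from 81066, 69179 and 77812 normalized read counts (TG) against 84540.0, 84538 and 81021 (WT). The groups overlapped by 1 library, and without TG replicate 2 the value was -0.07. Snap25 (0.06 ± 0.08) and Ppp3ca (-0.05 ± 0.09) also overlapped between the groups (log2 fold change ± standard error). With 1 library left out, Snap25 lay between 0.02 (WT replicate 3) and 0.14 (TG replicate 2). These genes encode a membrane fusion protein that binds GluK5 and the catalytic subunit of calcineurin. The RNA-editing enzymes Adar and Adarb1, also in the list and named here for the Q/R site above, had log2 fold changes of 0.06 and -0.03 (adjusted P = 0.971 and 0.983 by limma).

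In the related receptor families, 1 of 13 subunit genes passed an unadjusted P value of 0.05 by limma, against 4.31% of all genes tested. It was Grin2c, the NMDA receptor subunit GluN2C, where 1944, 2050.1 and 1966 normalized read counts of the TG mice stood against 2236, 2226 and 2327 of the WT mice. All TG values lay below the WT values, and the log2 fold change was -0.19 ± 0.05 (standard error, limma, adjusted P = 0.971). The 4 AMPA receptor subunit genes were all higher in mean in TG mice. Their median log2 fold change was 0.08, against -0.00177 over all genes tested. Of the 7 NMDA receptor subunit genes 3 were higher and 4 lower. Gria1, Grin1 and Grid1 had log2 fold changes of 0.07 (0.04 without TG replicate 2), -0.06 (-0.03 without WT replicate 3) and 0.01, and only the values of Gria1 among these did not overlap between the groups. Groups free of overlap were seen in 1 of the 4 AMPA, 1 of the 7 NMDA and 0 of the 2 delta receptor genes. Among all genes tested the share was 10.1%. Whether any member differed from these receptor genes in its response was not tested.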

How the data were processed

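Striatal RNA from 3 WT and 3 Shank3 TG mice was prepared with a TruSeq RNA Sample Prep Kit v2 and sequenced. Per the paper and the labels, the authors trimmed reads with Trimmomatic 0.35, used TopHat2 2.1.0 for alignment to GRCm38 and took gene counts from HTSeq. The deposited signal is the gene count divided by the size factor from DESeq2. The strand setting and annotation release are not given in the sources used here. Dividing each library by its smallest value above 0 gave whole reads within 0.01 for 100% of values. The counting error of a value follows from these reads and covers counting only.

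The main test was limma 3.58.1 on log2(value + 1), with its trend option, for genes with a mean of at least 10, Benjamini-Hochberg adjusted over the 17605 genes tested. On the recovered counts, edgeR 4.0.16 (quasi-likelihood) and DESeq2 1.42.0 were run in R 4.3.3. The study's own test is DESeq2, but the deposited values are normalized. The paper also corrected its P values with the fdrtool package before the Benjamini-Hochberg step, and it called more genes. That correction was not made here, so the counts of called genes do not share a threshold with the paper's. Fold changes on the log2(value + 1) scale understate changes of low genes. Alternatives changed the scaling (TMM or library totals), the filter (none, or 50), the pseudocount (0.5 or 5), the libraries (each omitted once), the length (coding) and the model (a block for the replicate number), with medium spiny neuron markers as a covariate added after the data were seen. The fits were also run on simulated counts, drawn for each gene independently and with no shift in cell makeup. The outcome is not given here, and that run does not show how the fits behave on these libraries. Levels per kilobase used the union of annotated exons or the longest coding sequence in GENCODE M21, which matched 45143 of 46078 identifiers. Sequences came from its transcripts.

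The members and lists were chosen with earlier results of these data known. Named genes are all members, Shank3, the 6 partners with the smallest P value and the 4 most abundant, the highest subunit per kilobase of each related family and those with an unadjusted P value under 0.05, the most abundant marker of each list, exon-sharing genes and the closest gene to each member. One gene that this rule names is not reported here. Ctnnb1, Adar and Adarb1 were named after their values were seen. By limma 0 genes were called in each marker list. In the lists named only here, the median log2 fold change was -0.05 for cholinergic interneurons (led by Slc5a7), -0.07 for oligodendrocyte precursors (Gpr17), -0.05 for astrocytes (Slc1a3) and -0.09 for microglia (Csf1r). It was -0.14 for medium spiny neurons (Pde10a), 0.03 for cortical excitatory neurons (Slc17a7), -0.06 for GABAergic interneurons (Sst) and 0.95 for choroid plexus (Ttr).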

Additional observations from a re-analysis of the deposited data

How the results depend on the processing

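None of the 7 members was called under any of the 16 alternatives, where the smallest adjusted P value was 0.691. Over all genes the count of 1 called gene moved to 7 with DESeq2, 5 with no filter on low values and 5 with the medium spiny neuron markers as a covariate, and lay between 1 and 2 with each library left out (2 when either TG replicate 2 or TG replicate 3 was omitted). Of 112 member values under an alternative, 103 kept their sign. Leaving out a library gave log2 fold changes from -0.075 to 0.13 for Grik2, -0.045 to 0.077 for Neto1, -0.10 to 0.052 for Neto2, -0.13 to 0.058 for Ppp3ca and -0.011 to 0.035 for Grid1. With the covariate the sign turned for Neto2 (0.044), Snap25 (-0.00587), Ppp3ca (0.029) and Grid1 (-0.00760). The cause was not tested. The labels do not say whether the replicate numbers pair the mice. Deviations of same-numbered libraries correlated at 0.0474, 0.0163 and 0.0928. TG replicate 1 correlated best with WT replicate 2, and TG replicates 2 and 3 with WT replicate 3. Correlations this weak cannot decide whether the mice were paired. The replicate block called 1 gene and 0 members (1024 genes under an unadjusted 0.05, against 758). Coding length moved the subunit shares as given above, and it lowered the WT share of Grik4 and Grik5 together from 67.7% to 49.8%. With 3 mice a group, the median 95% interval of a log2 fold change spanned 0.38, which limits what could be detected.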
